A study of Homo sapiens with 4 samples.

Results

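The genes of MHC class I antigen presentation were followed through the silencing of circZFR, a circular RNA made from exons of *ZFR*. The group holds 9 genes of the 40205 listed in the deposited tables. They were chosen by symbol for their role, with earlier results of these data known. They are the class I heavy chains *HLA-B*, *HLA-C*, *HLA-E* and *HLA-F*, the light chain *B2M*, and the peptide supply and loading genes *TAP1*, *TAP2*, *TAPBP* and *ERAP1*. All 9 were among the 13885 genes tested. Lung adenocarcinoma cells in culture were transfected for 24 h with control siRNA (libraries NC 1 and NC 2) or with siRNA against circZFR (libraries si-circZFR 1 and si-circZFR 2), which gave 2 libraries in each of 2 groups. The sample labels name the line H1299 and the study's design text names A549. Both groups were grown in RPMI with fetal calf serum, and no other agent or allele is named for either. The cells are of 1 line, and no source used here says that the libraries of a group came from separate cultures, so the p-values measure the spread between these libraries, which may be technical. In bulk RNA, fewer cells of a type and less RNA per cell cannot be told apart.

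MHC class I molecules show short peptides from inside the cell on its surface, where cytotoxic T cells and natural killer cells read them. Cytosolic proteins are cut by the proteasome, the TAP1-TAP2 transporter carries the peptides into the endoplasmic reticulum, tapasin (*TAPBP*) holds empty class I molecules next to the transporter, and the aminopeptidase ERAP1 trims the peptides to length. The heavy chain reaches the surface only with beta-2 microglobulin (*B2M*) and peptide. In most cells, interferons and NF-kappaB raise these genes through shared promoter elements, and tumours often lower them.

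In each library, the level of a gene is its RPKM (reads per kilobase of gene, relative to the reads of the library) divided by a scaling factor for that library, called scaled RPKM here. None of the 9 genes passed the test, which asked for an adjusted p under 0.05 and a log2 fold change beyond 1 in either direction. *B2M*, *HLA-B*, *TAP1*, *HLA-F* and *HLA-C* had lower values in both si-circZFR libraries than in both NC libraries, by 0.28 to 0.50 on the log2 scale. *ERAP1* had higher values in both, and *HLA-E*, *TAP2* and *TAPBP* overlapped between the groups. The median log2 fold change of the 9 genes was -0.28, beside 0.0063 over all genes tested. Over all genes, 0.0576% passed the test, 28.1% were below both NC libraries and 28.1% were above both. At an unadjusted p under 0.05, 0 of the 9 genes stood beside 21.7% of all genes, by limma's moderated test on log2(scaled RPKM + 1), the scale of every fold change given here, which understates the change of low genes.

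*ZFR*, the host gene of the circle, was read first because its linear mRNA carries the same exons. Its scaled RPKM was 26.0 in NC 1, 31.9 in NC 2, 5.26 in si-circZFR 1 and 4.63 in si-circZFR 2. It was lower in both libraries labelled circZFR siRNA, with a log2 fold change of -2.33 (SE 0.17, adjusted p = 0.039 by limma), and this call was lost under 6 of the 14 alternatives. The siRNA was aimed at the back-spliced junction, and reads of the circle and of linear *ZFR* are not separated in values per gene, so the level of the circle itself was not checked here. Recovered reads of *ZFR* were 3177 over the NC and 551 over the si-circZFR libraries. Each difference between the groups below is thus also one between libraries that differ in gene-level *ZFR*. The design cannot tell the circle and its host gene apart. Recovered read totals were 11040050 to 12816868 per library. The A549 markers *AKR1B10*, *AKR1C1*, *AKR1C2* and *ALDH1A1* were each at scaled RPKM of 515.2 or more in every library. The other A549 markers were low: *FGA* was 3.15 and 3.31 in the NC and 5.97 and 6.21 in the si-circZFR libraries, and *FGB* was 0.775 and 1.36 against 2.60 and 1.91. Markers of H1299 were not examined, so the line is not settled by these values. Of 7 leukocyte markers, *PTPRC* (the pan-leukocyte antigen), *CD3E*, *NKG7* and *MS4A1* were listed at 0 in every library, and the summed scaled RPKM of these 7 was 7.51 to 9.16 in the NC and 9.28 to 9.89 in the si-circZFR libraries, nearly all of it from *CD14* and *ITGAM*. The epithelial markers *EPCAM* and *CDH1* had log2 fold changes of 1.20 and 1.05 (adjusted p = 0.082 for each by limma) and *KRT8* and *KRT18* of 0.38 and 0.35, and none of the 4 passed. All 4 were above both NC libraries, as were 28.1% of all genes. *EPCAM* was near the floor, with 4 reads in each NC library and 18 and 28 reads in the si-circZFR libraries.

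Among the 9 genes, 7 lie on chromosome 6 between positions 29722775 and 33314284, a stretch of 3.59 Mb that is the MHC, by the GENCODE annotation of GRCh38. The order there is *HLA-F* (chr6:29722775-29738528, plus strand), *HLA-E* (chr6:30489509-30494194, plus), *HLA-C* (chr6:31268749-31272130, minus), *HLA-B* (chr6:31353872-31367067, minus), *TAP2* (chr6:32821833-32838739, minus), *TAP1* (chr6:32845209-32853816, minus) and *TAPBP* (chr6:33299694-33314284, minus). *B2M* lies at chr15:44711358-44718851 on the plus strand and *ERAP1* at chr5:96760810-96808100 on the minus strand. The deposited values are joined to these positions by gene symbol.

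The promoters of the genes that were lower in both si-circZFR libraries are shown because class I genes share promoter elements that interferon and NF-kappaB signalling act on. RefSeq windows of 300 bases around the start site (GRCh38.p14) were found for 8 of the 9 genes, with no entry for *HLA-E*, and the 250 bases before the start site are printed 5′ to 3′ on the gene's strand. Capitals mark every match, on either strand, to 4 short motifs: AANNGAAA (the core of an interferon-stimulated response element, ISRE-like), GGGNNTTCC (kappaB-like), TGACG (the core of a cAMP response element, as in the X2 box) and CCAAT (the box bound by NF-Y). Matches of a motif can overlap each other.
*HLA-B*, chr6:31357180-31357429, minus strand: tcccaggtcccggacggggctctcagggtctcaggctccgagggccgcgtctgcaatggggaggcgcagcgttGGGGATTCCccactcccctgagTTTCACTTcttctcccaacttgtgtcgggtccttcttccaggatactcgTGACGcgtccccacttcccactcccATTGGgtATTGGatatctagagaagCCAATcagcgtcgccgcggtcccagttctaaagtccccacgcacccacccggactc
*HLA-C*, chr6:31272093-31272342, minus strand: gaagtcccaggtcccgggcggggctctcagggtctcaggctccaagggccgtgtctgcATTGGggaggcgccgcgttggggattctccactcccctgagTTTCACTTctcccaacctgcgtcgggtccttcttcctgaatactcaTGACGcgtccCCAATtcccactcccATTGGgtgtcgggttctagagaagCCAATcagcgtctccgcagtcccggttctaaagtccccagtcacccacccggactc
*HLA-F*, chr6:29723184-29723433, plus strand: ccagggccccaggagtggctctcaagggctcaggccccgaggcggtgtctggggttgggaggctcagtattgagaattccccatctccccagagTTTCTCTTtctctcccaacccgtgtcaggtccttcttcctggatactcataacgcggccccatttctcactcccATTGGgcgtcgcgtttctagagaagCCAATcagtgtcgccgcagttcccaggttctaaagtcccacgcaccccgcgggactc
*B2M*, chr15:44711267-44711516, plus strand: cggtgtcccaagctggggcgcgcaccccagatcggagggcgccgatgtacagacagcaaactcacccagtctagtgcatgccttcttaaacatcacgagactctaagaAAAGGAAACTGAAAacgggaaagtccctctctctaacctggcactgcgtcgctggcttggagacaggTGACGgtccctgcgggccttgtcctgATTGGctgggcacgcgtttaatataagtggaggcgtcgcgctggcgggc
*TAP1*, chr6:32853705-32853954, minus strand: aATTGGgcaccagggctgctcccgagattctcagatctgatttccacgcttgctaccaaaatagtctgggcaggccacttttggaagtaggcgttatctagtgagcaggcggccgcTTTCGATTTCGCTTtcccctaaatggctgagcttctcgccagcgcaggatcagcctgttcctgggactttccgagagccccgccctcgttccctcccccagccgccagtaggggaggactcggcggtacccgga
The window of *HLA-B* held all 4 motifs, in the order kappaB-like, ISRE-like, TGACG and CCAAT towards the start site. *HLA-C* held ISRE-like and TGACG matches and 4 CCAAT matches, 1 of them upstream of the ISRE-like match, and *HLA-F* held ISRE-like and CCAAT matches. *B2M* held all 4, with its kappaB-like match running across the start site and so outside the stretch printed. The 9-letter kappaB-like motif does not match the similar but longer gggactttcc, so that stretch is not marked. It stands in the printed *TAP1* sequence and, on the other strand, in that of *B2M*. *TAP1* has 2 windows in the table, of which the upstream one is printed and the other held no match.

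An ISRE-like match was present in at least 1 window of each of the 8 genes, also in those that were not lower: *TAP2*, *TAPBP* and *ERAP1*. Of these, *TAPBP* and *ERAP1* also held a kappaB-like match, *ERAP1* a CCAAT match and *TAP2* a TGACG match. Over all 35116 windows of the table, 22.8% held the ISRE-like motif, 6.58% the kappaB-like motif, 24.6% TGACG and 34.6% CCAAT. These are matches of letters, not sites of binding, and expression values alone do not bear on whether any of them was used. The HLA loci vary between people and cell lines, so the cells' own promoters may differ from this reference.

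By level, *B2M* stood first in the NC libraries, at a mean scaled RPKM of 221.9 ± 48.9 (SD, n = 2), at or above 98.3% of the genes tested. *HLA-C* followed at 57.6 ± 9.66, and then *HLA-E* at 35.9 ± 9.53, *TAP1* at 32.3 ± 3.41, *HLA-B* at 30.6 ± 8.43 and *TAPBP* at 29.0 ± 9.60. These last 4 genes overlapped in their NC values and cannot be ordered beyond their spread. *TAP2* at 10.2 ± 0.668 lay above *ERAP1* at 7.55 ± 0.508 without overlap, and *HLA-F*, at 2.43 ± 0.022, was the lowest of the group, at or above 21.5% of the genes tested. In the si-circZFR libraries the values of *TAP2* and *ERAP1* overlapped.

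**Figure D1:**
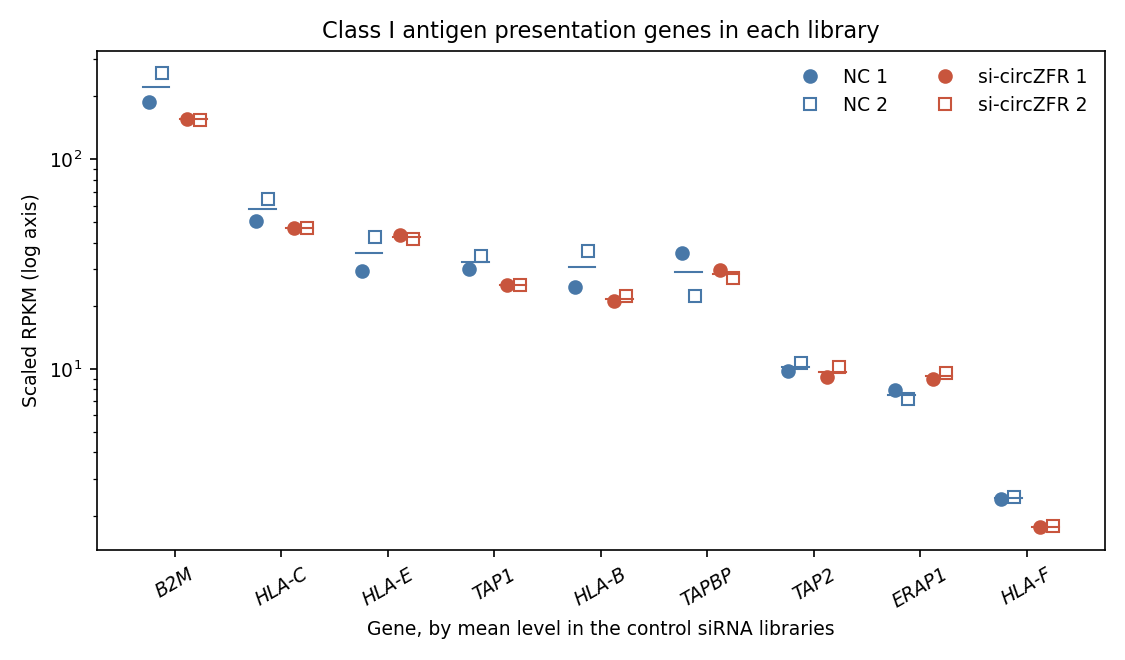
Scaled RPKM (log axis) of each of the 9 class I presentation genes in the 4 libraries, ordered by the mean in the control siRNA libraries. Blue marks are NC 1 (filled circle) and NC 2 (open square), red marks are si-circZFR 1 and si-circZFR 2 with the same shapes, and short lines are group means (n = 2). *B2M* lies far above the other genes and *HLA-F* far below, and the 2 red marks of a gene lie closer together than its 2 blue marks for 7 of the 9 genes.

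Among the heavy chains, *HLA-B*, a classical class I heavy chain that presents peptides to cytotoxic T cells, had scaled RPKM of 24.7 in NC 1, 36.6 in NC 2, 21.0 in si-circZFR 1 and 22.3 in si-circZFR 2. Both si-circZFR values were below both NC values, but the gap to NC 1 was smaller than the distance between NC 1 and NC 2. The log2 fold change was -0.46 (SE 0.22, 95% interval -1.0 to 0.084, adjusted p = 0.287 by limma).

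*HLA-C*, the classical heavy chain that is also the main ligand of killer immunoglobulin-like receptors, had scaled RPKM of 50.8 in NC 1, 64.5 in NC 2, 47.1 in si-circZFR 1 and 46.9 in si-circZFR 2. The si-circZFR values again lay just under NC 1 and well under NC 2. Its log2 fold change was -0.28 (SE 0.18, 95% interval -0.73 to 0.18, adjusted p = 0.417 by limma).

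*HLA-E*, a nonclassical heavy chain that shows leader peptides of other class I molecules to the NKG2A receptor of natural killer cells, went the other way in value. Its scaled RPKM was 29.2 in NC 1, 42.7 in NC 2, 43.4 in si-circZFR 1 and 41.8 in si-circZFR 2. NC 2 lay between the si-circZFR values and NC 1 alone was low. The log2 fold change was 0.27 (SE 0.22, 95% interval -0.27 to 0.80, adjusted p = 0.508 by limma). Without NC 1 it was -0.0051 and without NC 2 it was 0.53, so the size and the sign of this difference rest on which control library is kept. In RPKM before scaling, *HLA-E* was 28.6 and 38.5 in the NC libraries and 44.2 and 46.4 in the si-circZFR libraries, where the groups did not overlap.

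*HLA-F*, a nonclassical heavy chain that can reach the surface as an open conformer, was measured from 66 reads in each NC library and 47 and 51 reads in the si-circZFR libraries. Scaled RPKM was 2.41 in NC 1, 2.44 in NC 2, 1.76 in si-circZFR 1 and 1.78 in si-circZFR 2. The libraries of each group lay closer together than the counting error, which is 12.3% to 14.6% of a value at these read numbers. The log2 fold change was -0.31 (SE 0.17, 95% interval -0.73 to 0.12, adjusted p = 0.350 by limma). The antisense gene *HLA-F-AS1* spans 414 bases of the exons of *HLA-F*, and whether reads were counted by strand is not given in the sources used here.

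Of the other heavy chain loci listed, *HLA-H*, a pseudogene, was tested, with scaled RPKM of 3.43, 3.10, 2.56 and 2.93 in the order NC 1, NC 2, si-circZFR 1 and si-circZFR 2 and a log2 fold change of -0.19 (adjusted p = 0.556 by limma). *HLA-G*, the heavy chain of the placental trophoblast, was too low for the test. It had 19 and 20 reads in the NC libraries and 4 and 5 reads in the si-circZFR libraries, or scaled RPKM of 0.850 and 0.906 against 0.183 and 0.214. These few reads come from a gene close in sequence to the abundant class I genes, and this gene's values were singled out after they were seen. *HLA-J*, *HLA-K* and *HLA-L* were also below the limit of the test.

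*B2M*, the light chain shared by class I molecules, had scaled RPKM of 187.3 in NC 1, 256.5 in NC 2, 155.1 in si-circZFR 1 and 154.6 in si-circZFR 2. The si-circZFR libraries were nearly equal and below both NC libraries. The log2 fold change of -0.50 was the furthest from 0 among the 9 genes (SE 0.23, 95% interval -1.06 to 0.065, adjusted p = 0.271 by limma). Of all genes tested, 24.1% had a larger absolute log2 fold change. With each library's smooth trend with gene length removed, the value was -0.23. *B2M* is short, with a recovered length of 987 bases, and across the 13885 genes the log2 fold change rose with recovered length (Spearman's rho 0.294, across genes that share 4 libraries, so a description). The log2 difference from NC 1 to NC 2 fell with recovered length (rho -0.344), so a length trend was also present between the control libraries.

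*TAP1*, a subunit of the peptide transporter, had scaled RPKM of 29.9 in NC 1, 34.7 in NC 2, 25.2 in si-circZFR 1 and 25.1 in si-circZFR 2. Both si-circZFR values were below both NC values, at a log2 fold change of -0.35 (SE 0.16, 95% interval -0.74 to 0.051, adjusted p = 0.276 by limma). *TAP2*, the other subunit, had values of 9.73, 10.7, 9.13 and 10.2 in the same order of libraries. Those overlapped, and the log2 fold change was -0.070 (SE 0.16, 95% interval -0.46 to 0.32, adjusted p = 0.821 by limma). The span of *PSMB9* on the opposite strand covers the exons of *TAP1* in the annotation, and 34.7% of the 100-base windows of the *TAP2* transcript also occur in an annotated read-through transcript.

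*TAPBP*, which encodes tapasin, was 35.8 in NC 1, 22.3 in NC 2, 29.7 in si-circZFR 1 and 27.0 in si-circZFR 2 on the scaled RPKM scale. Both si-circZFR values lay between the NC libraries, which stood 0.66 apart on the log2 scale. Its log2 fold change of 0.0040 (SE 0.25, 95% interval -0.61 to 0.61, adjusted p = 0.995 by limma) averages the control libraries: it was 0.33 without NC 1 and -0.33 without NC 2.

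*ERAP1*, the peptide-trimming aminopeptidase, was the gene of the group with higher values in both si-circZFR libraries. Scaled RPKM was 7.91 in NC 1, 7.19 in NC 2, 8.95 in si-circZFR 1 and 9.55 in si-circZFR 2, at a log2 fold change of 0.26 (SE 0.15, 95% interval -0.12 to 0.64, adjusted p = 0.365 by limma). *CAST* on the opposite strand spans 2068 bases of its exons.

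**Figure D2:**
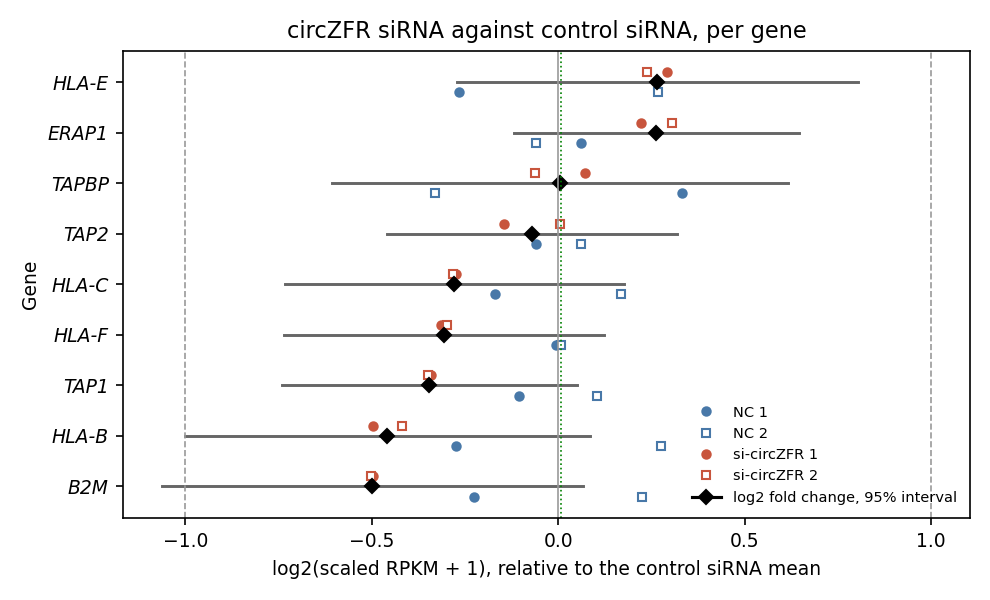
Values of each library on the log2(scaled RPKM + 1) scale, relative to the mean of the control siRNA libraries, for each of the 9 genes. Diamonds are log2 fold changes with 95% intervals from limma (n = 2 against 2), small marks are single libraries, dashed lines mark 1 and -1, and the dotted line is the median of all genes tested. Every interval contains 0, and those of *B2M* and *HLA-B* reach -1.06 and -1.0.

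The intervals show what this design could resolve: for 7 of the 9 genes they stayed within 1 on the log2 scale, and for *B2M* and *HLA-B* they did not. The control libraries differed from each other more than the si-circZFR libraries did. From NC 1 to NC 2, 7 of the 9 genes were higher, with a median difference of 0.21 on the log2 scale, beside 0.0079 over all genes tested. From si-circZFR 1 to si-circZFR 2 the median difference was -0.0050, with 4 genes higher and 5 lower. Against NC 1, the median over the 9 genes was -0.22 for si-circZFR 1 and -0.14 for si-circZFR 2, and against NC 2 it was -0.32 and -0.31. The direction of the median was thus the same against each control library, and its size was larger against NC 2. Without NC 1, *B2M* was at -0.73, *HLA-B* at -0.74, *HLA-C* at -0.45 and *TAP1* at -0.45, and without NC 2 they were at -0.28, -0.19, -0.11 and -0.25. In neither case did a gene of the group pass, with a smallest adjusted p of 0.052 by limma, for *HLA-B* without NC 1.

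Ratios between genes of the same library do not depend on the scaling. They still carry the trend with gene length where the paired genes differ in length. With that trend removed, the log2 fold changes were 0.26 for *HLA-E* and -0.23 for *B2M*, in place of 0.27 and -0.50. For *HLA-F* and *ERAP1* they were -0.29 and 0.15, in place of -0.31 and 0.26. *HLA-E* to *B2M*, both as RPKM, was 0.156 in NC 1 and 0.166 in NC 2 and 0.280 in si-circZFR 1 and 0.271 in si-circZFR 2. The groups lay 0.77 apart on the log2 scale, against at most 0.095 between libraries of a group. *HLA-B* to *HLA-E* was 0.846 and 0.858 in the NC libraries and 0.484 and 0.532 in the si-circZFR libraries, and *HLA-C* to *HLA-E* was 1.74 and 1.51 against 1.09 and 1.12. *HLA-F* to *ERAP1* was 0.305 and 0.340 in the NC libraries and 0.196 and 0.187 in the si-circZFR libraries. *HLA-B* to *B2M* was 0.132 and 0.143 in the NC libraries and 0.135 and 0.144 in the si-circZFR libraries, which overlapped between the groups.

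Of the 36 pairs among the 9 genes, 22 had ratios that did not overlap between the groups (61.1%), beside 56.5% of all pairs of tested genes above 0 in every library. *HLA-E* was higher relative to its partner in both si-circZFR libraries in 6 of its 8 pairs, and it overlapped with *TAPBP* and *ERAP1*. The pairs named were chosen after all 36 were computed: the 4 with the largest distance between groups relative to the spread within them, and *HLA-B* to *B2M* as a pair that overlapped. They share genes, and an exact permutation test of 2 libraries against 2 cannot fall below p = 0.333 (two-sided), so these ratios stand as descriptions.

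**Figure D3:**
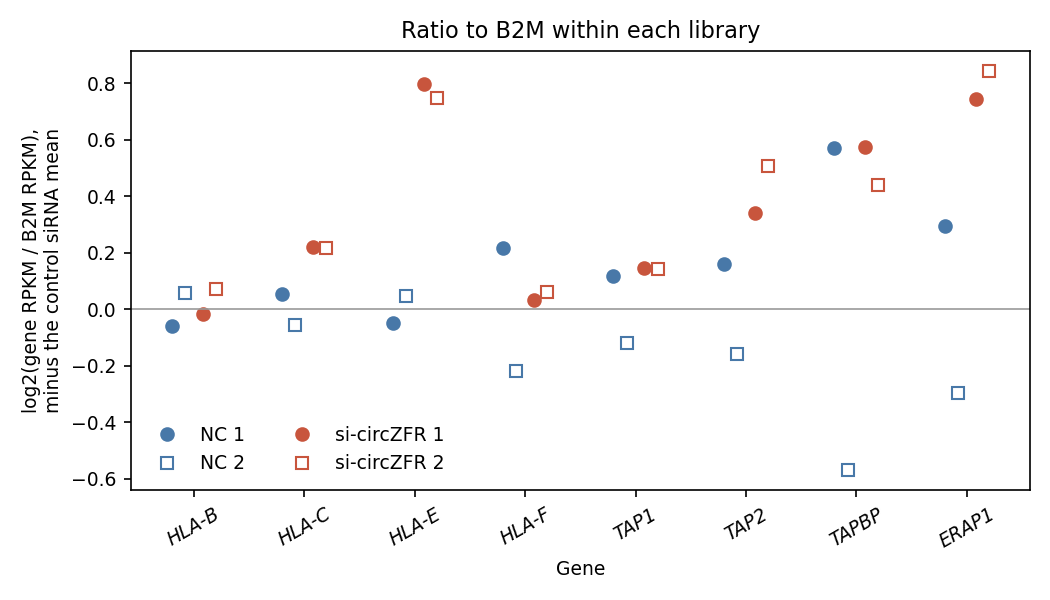
The log2 ratio of each gene's RPKM to that of *B2M* in the same library, minus the mean ratio of the control siRNA libraries. Blue marks are NC 1 (filled) and NC 2 (open), and red marks are si-circZFR 1 (filled) and si-circZFR 2 (open). For 5 of the 8 genes (*HLA-C*, *HLA-E*, *TAP1*, *TAP2* and *ERAP1*) both red libraries lie above both blue ones, *HLA-B*, *HLA-F* and *TAPBP* overlap between the groups, and *TAPBP* is widely split between the blue libraries. *B2M* itself had a log2 fold change of -0.50, so a higher ratio need not be a higher level. *HLA-C* and *TAP1* were lower in scaled RPKM in both si-circZFR libraries.

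The rest of the pathway was read from gene lists in the order of peptide supply. Of the 5 immunoproteasome and PA28 genes, which adapt the proteasome to making class I peptides, 0 passed in either direction. Below both NC libraries were 4 of them, beside 28.1% of all genes, and the median log2 fold change was -0.38. *PSMB9*, the interferon-inducible subunit that shares a promoter region with *TAP1*, was 15.04 in NC 1, 16.01 in NC 2, 8.57 in si-circZFR 1 and 9.80 in si-circZFR 2 on the scaled RPKM scale. At a log2 fold change of -0.70 (SE 0.16, adjusted p = 0.104 by limma) it did not pass. Its groups did not overlap. *PSME1*, a subunit of the PA28 activator, was 133.8, 157.0, 97.6 and 87.2, at -0.65 (adjusted p = 0.150). Its partner *PSME2* was at -0.38 and the immunoproteasome subunit *PSMB8* at -0.17, and *PSMB10* overlapped between the groups at 0.011. The median of the 5 genes was -0.68 without NC 1 and -0.098 without NC 2. With the length trend removed, it was -0.064 and *PSMB9* was at -0.27.

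The 3 catalytic subunits that the immunoproteasome subunits replace, *PSMB5*, *PSMB6* and *PSMB7*, were also below both NC libraries, as were 28.1% of all genes. They were at -0.33, -0.34 and -0.69 (smallest adjusted p = 0.232 by limma). Their median of -0.34 was -0.52 without NC 1 and -0.20 without NC 2. Of the 7 cytosolic peptidases, 0 passed, and 3 were above and 1 was below both NC libraries, beside 28.1% of all genes in each direction. The median of the peptidases was 0.17, which was 0.30 without si-circZFR 1 and 0.068 without si-circZFR 2. *NRD1* had a log2 fold change of 0.57 (adjusted p = 0.150), *LAP3*, an aminopeptidase induced by interferon gamma, -0.28, and *NPEPPS*, the puromycin-sensitive aminopeptidase, 0.29.

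Of the other 6 loading and folding genes of the endoplasmic reticulum, 0 passed and 5 had a positive value, with a median of 0.21. *PDIA3*, which sits with tapasin in the loading complex, was 49.5, 59.8, 68.7 and 78.8 on the scaled RPKM scale in the order NC 1, NC 2, si-circZFR 1 and si-circZFR 2, above both controls in both, at 0.43 (adjusted p = 0.253 by limma). *UGGT1*, the folding sensor that returns glycoproteins to the chaperones, was at 0.35 and *ERAP2*, the partner of ERAP1, at 0.26, both above the NC libraries. The chaperones *CALR* and *CANX* overlapped at 0.089 and 0.17, and *TAPBPL*, the tapasin-related editor, at -0.021.

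**Figure D4:**
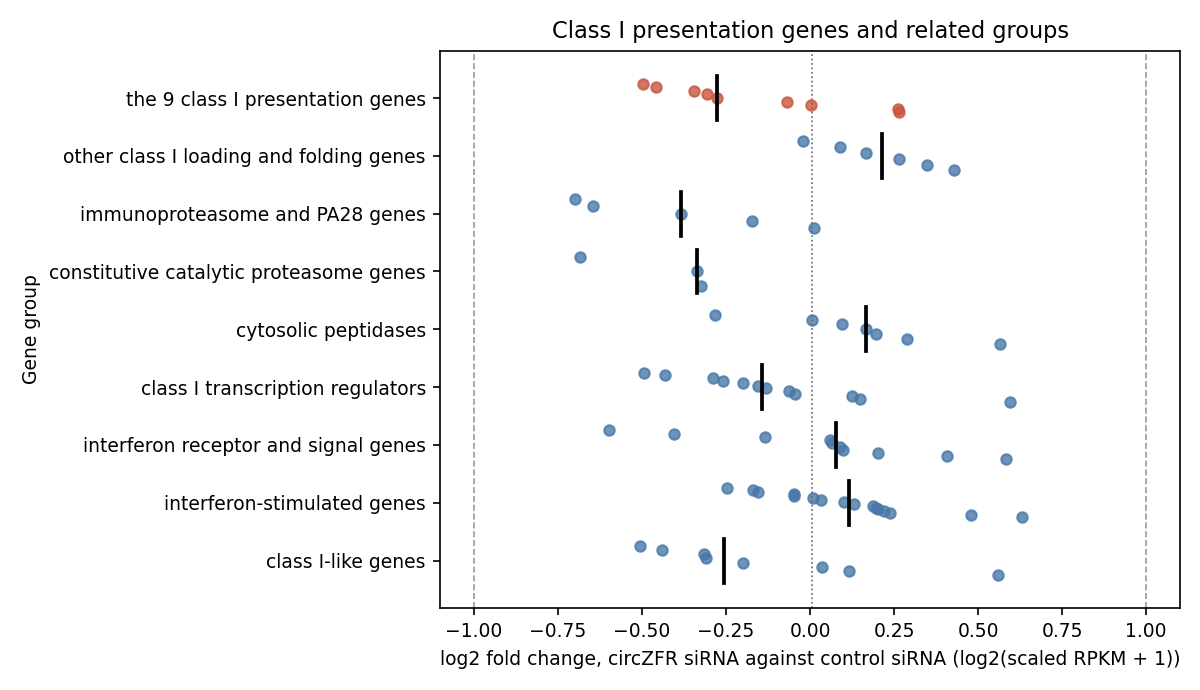
Log2 fold changes (circZFR siRNA against control siRNA, log2(scaled RPKM + 1)) of the tested genes in each group of the pathway. Each dot is a gene, red for the 9 class I presentation genes and blue for the others, black bars are group medians, the dotted line is the median of all genes tested and dashed lines mark 1 and -1. No dot lies beyond a dashed line, and the lowest medians belong to the proteasome groups.

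Of 13 transcription regulators of class I genes, 12 were tested, 0 passed, and 9 had a negative value (median -0.14, -0.092 without NC 2). With scaling by library size only, this median turned to 0.016. *NFYC* and *NFYB*, subunits of the factor that binds CCAAT, were at -0.50 and -0.43 (adjusted p = 0.177 and 0.252 by limma), and *ATF1*, a factor of the cAMP response element family, at 0.60 (adjusted p = 0.245). *NLRC5*, the class I transactivator, *IRF1* and *RELA* did not pass either, at 0.12, -0.26 and -0.29. *IRF1* and *RELA* were below both NC libraries and *NLRC5* overlapped. Of the 12 tested, 6 were below and 1 was above both NC libraries, beside 28.1% of all genes in each direction.

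Of 10 interferon receptor and signal genes, 0 passed, and 2 were above and 2 below both NC libraries, beside 28.1% of all genes in each direction. The median of the 10 genes was 0.077. It was 0.010 without NC 2 and turned to -0.015 with the length trend removed. *IFNGR2*, a chain of the interferon gamma receptor, was at -0.60 (adjusted p = 0.171 by limma), *IFNAR2*, a chain of the type I receptor, at -0.40 (adjusted p = 0.222) and the kinase *JAK2* at 0.58 (adjusted p = 0.221). Among 24 interferon-stimulated genes, 16 were tested and 0 passed. Of the 16, 6 were above and 1 was below both NC libraries, beside the same 28.1% of all genes in each direction. Their median was 0.12 (0.046 without NC 1). *MX1*, an antiviral GTPase, was 2.11 in both NC libraries and 3.50 and 4.17 in the si-circZFR libraries, at 0.63 (adjusted p = 0.138). *GBP2* was at 0.48 and *OAS3* at 0.24.

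Of 14 class I-like genes, 8 were tested and 0 passed (median -0.26, which was -0.41 without NC 1 and -0.12 without NC 2). *HFE*, which pairs with *B2M* and regulates iron uptake, was at 0.56 (adjusted p = 0.144 by limma), *MICB*, a stress ligand of NKG2D, at -0.51 (adjusted p = 0.187), and *MR1*, which presents vitamin B metabolites, at -0.44 (adjusted p = 0.212). Most MHC class II genes were at or near 0. *HLA-DRA*, *HLA-DPB1*, *HLA-DQA1* and *HLA-DQB1* were listed at 0 in every library, and of 10 genes only *HLA-DMA* (-0.15) and *HLA-DMB* (0.49) were tested, neither passing.

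The tested genes outside the group whose centred log2 profile over the 4 libraries lay closest to the mean profile of the 9 genes were *POLD3*, *RPUSD2*, *PSMB8*, *TRNP1* and *PRKCDBP*, at Euclidean distances of 0.015 to 0.023. That mean profile was -0.00037 in NC 1, 0.16 in NC 2, -0.086 in si-circZFR 1 and -0.073 in si-circZFR 2. With 4 libraries many genes can share such a shape, here one with NC 2 high and the other libraries close together.

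**Figure D5:**
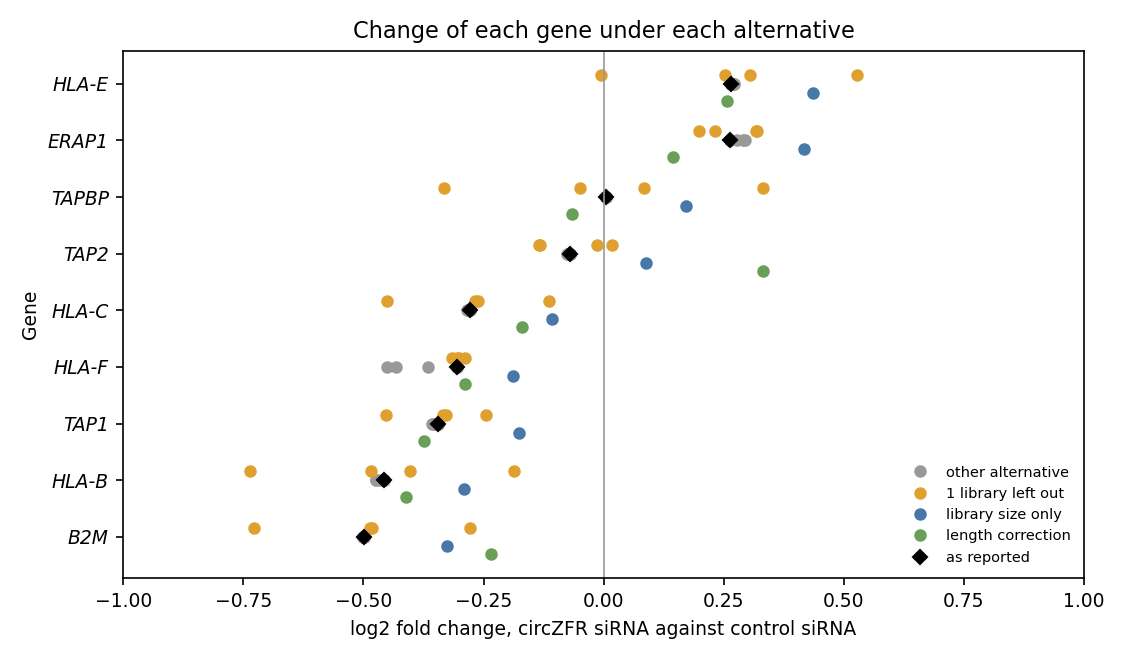
Log2 fold change of each of the 9 genes as reported (black diamonds) and under each of 14 alternatives: 1 library left out (orange), no scaling beyond library size (blue), length trend removed (green), and the others (grey). *B2M*, *HLA-B*, *TAP1*, *HLA-F* and *HLA-C* stay below 0 and *ERAP1* above 0 under all 14, while *TAPBP*, *TAP2* and *HLA-E* cross 0.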

How the data were processed

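RNA from 4 libraries was sequenced on the Ion Proton. The authors aligned reads and deposited RPKM values per gene. The study's methods name hg38 and the submitters' processing notes GRCh37, and the RPKM values were matched to the annotation by symbol. The study names SVA and a count test for its own comparison. Because RPKM values are not counts, limma took the place of the count test, as planned for this unit.

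Each library's RPKM values were divided by a scaling factor. The factor was an unweighted trimmed mean of the library's log2 ratios to a reference library, taken back from the log scale. Before averaging, 30% of the ratios and 5% of the levels were trimmed at each end. The factors were then divided by their geometric mean. A gene was tested if its RPKM reached 1 in 2 or more libraries. The test used log2(scaled RPKM + 1) with limma's trended prior variance and Benjamini-Hochberg adjustment over all genes tested. Reads were recovered as the shortest gene length that made a gene's values whole numbers (tolerance 0.0001), which held for 24281 of 24289 genes (99.97%). A multiple of that length gives whole reads too. For *TAP2* the length found, 631 bases, is far under the 5643 of its annotated transcript, so its read number is not given. Counting errors cover counting only. Promoter windows came from RefSeq, gene positions from GENCODE.

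The 9 genes and the gene lists were chosen with earlier results of these data known. Named were all 9 genes, in each other list of the pathway the 3 tested genes with the smallest p (all in lists of up to 6), the 5 closest profiles and *ZFR*. Marker lists were kept apart from this rule. *HLA-G*, *IRF1*, *RELA*, *NLRC5* and the ratios of pairs were added afterwards. R 4.3.3, limma 3.58.1, Python 3.11.15, pandas 2.3.3 and numpy 2.4.6 were used. Results for some genes are not reported here.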

Additional observations from a re-analysis of the deposited data

How the results depend on the processing

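None of the 9 class I presentation genes passed under any of the 14 alternatives, and *B2M*, *HLA-B*, *TAP1*, *HLA-F*, *HLA-C* and *ERAP1* kept their direction under all of them. The number of genes passing over all genes tested was 8, and it was 0 without a filter (15.1% had an unadjusted p under 0.05 by limma), 200 with a filter of CPM above 1, 2 and 5 with pseudocounts of 0.1 and 0.5, 1 without the trend in the prior variance, 304 with limma-voom on recovered reads and 14 with the length trend removed. With 1 library left out it ranged from 0 to 937, the highest without NC 1. A fit with the replicate number as a block (replicate block) gave 63 genes and left all 9 class I genes short of the threshold. Whether same-numbered libraries were prepared together is not given in the sources used here. Their deviations correlated at 0.069 across genes, which cannot settle it.

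With scaling by library size only, the median of all genes moved to 0.15 and that of the 9 genes to -0.11, or -0.26 relative to all genes; 3 of the 9 were then below and 2 above both NC libraries, *TAP2* turned to 0.089 and *TAPBPL* to 0.12, and the median of the transcription regulators turned to 0.016. With the length trend removed, the median of the 9 genes was -0.17, 2 genes were above both NC libraries, and *TAP2* (0.33, on its uncertain length), *TAPBP* (-0.065), *TAPBPL* (0.037), *HLA-DMA* (0.071) and the median of the interferon receptor and signal genes (-0.015) turned. The median of the class II genes turned to -0.040 without a filter. With 1 library left out, the median of the 9 genes ranged from -0.32 to -0.19, the number above both NC libraries from 1 to 2 and the number below from 5 to 6. Among these, the sign turned for *HLA-E* (-0.0051 without NC 1, up to 0.53), *TAP2* (0.018 without si-circZFR 1, down to -0.13), *TAPBP* (-0.33 without NC 2 and -0.049 without si-circZFR 1, up to 0.33), *CALR* (-0.14 without NC 1 and -0.013 without si-circZFR 2, up to 0.31), *TAPBPL* (0.030 without NC 2 and 0.096 without si-circZFR 1), *PSMB10* (-0.11 without NC 1 and -0.10 without si-circZFR 2) and *HLA-DMA* (0.090 without NC 2, down to -0.39). *ZFR* kept its direction under every alternative and fell short of the threshold under 6 of them. With a lone library in a group, that library was taken to vary like the other group. The cause of these changes was not tested.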
